A study of Mus musculus with 4 samples.

Results

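Cd24a, Gpm6a and Gpm6b encode surface proteins of developing neurons, and the transcripts of all 3 carried many clusters of RNA crosslinked to the RNA-binding protein IMP2 (gene Igf2bp2) in embryonic mouse brain. The members were taken as every line of the deposited cluster list with the symbol Cd24a, Gpm6a or Gpm6b. These lines were reduced to distinct clusters by chromosome, start, end and strand. This gave 28 clusters of the 1828 in the list, namely 10 in Cd24a, 9 in Gpm6a and 9 in Gpm6b. The genes were chosen by the measured number and height of their clusters, and dense clusters in Cd24a were set against spread clusters in Gpm6b from the outset, so their numbers, heights and positions are given as a description, with no test.

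The study applied HITS-CLIP, in which ultraviolet light joins a protein to the RNA it touches before immunoprecipitation and sequencing, to whole brains of Swiss Webster embryos at E14. There were 4 libraries in all, and the protocol names antibodies against IMP2 raised in mouse and in rabbit; the labels do not say which antibody belongs to which library. The titles carry an R or an M that the labels do not explain. A single list of clusters stands for all libraries, with no column for a single library, so no value below has a replicate error, and no control immunoprecipitation, input or total RNA library was analysed here. A tall cluster therefore cannot be told apart from an abundant transcript, and the tissue holds every cell type of the brain.

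CD24, also called heat-stable antigen, is a short and heavily glycosylated protein held in the outer membrane by a glycosylphosphatidylinositol (GPI) anchor. It is found on immature neurons, where it has been linked to neurite growth, and also on blood cells. M6a and M6b are proteolipids, proteins that span the membrane several times. M6a is a neuronal protein that promotes filopodia and neurite growth, and M6b is made by neurons and glia. IMP2 belongs to the IGF2BP family, whose proteins bind transcripts, often in the 3' untranslated region (3' UTR), and influence their location, stability and translation.

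Each cluster has 2 scores, both the authors' values. The height was taken to be the deepest pile of tags within the cluster, and it ran from 18 to 107 over the list with a median of 30. The fold is that height over a reference level that the file header does not define, with a median of 5.4. Clusters with a height under 18 are not in the list, so a stretch described as free of clusters may still hold lower ones. All coordinates are on mm9, counted from 1, and all 3 genes lie on the plus strand.

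Cd24a, on chromosome 10 at 43298975 to 43304071, had a single deposited transcript with a 3' UTR of 1500 bases at 43302572 to 43304071, and all 10 clusters lay wholly inside it. In order from the stop codon, the heights were 29, 45, 57, 92, 79, 26, 54, 43, 57 and 46. Heights thus climbed over the first 4 clusters to the top of 92 and dropped to their lowest value 2 clusters later. The clusters ran in a tight row: the first began 423 bases after the start of the 3' UTR, and the first 7 followed each other with gaps of 27, 13, 14, 44, 23 and 16 bases. The last 3 followed after gaps of 99, 42 and 145 bases, and the final cluster ended 14 bases before the annotated 3' end.

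The tallest Cd24a cluster covered 64 bases at 43303183 to 43303246 and had a fold of 12.9, which made it the seventh tallest cluster of all 1828. Its neighbour downstream, at 43303291 to 43303421, was 131 bases wide, with a height of 79 and a fold of 9.36. Next came a pair of clusters of height 57, at 43303122 to 43303168 and at 43303738 to 43303842. Apart from the clusters of 131, 105, 70 and 64 bases, the Cd24a clusters were 42 to 48 bases wide, and 6 of the 10 were no wider than the list's median of 53 bases. The median height of Cd24a clusters was 50. Only 2 of them, with heights of 29 and 26, did not exceed the median of the list.

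Gpm6a, on chromosome 8 at 56040081 to 56146231, also had a single deposited transcript, with a 3' UTR of 1949 bases at 56144283 to 56146231. From its start, the 9 clusters had heights of 49, 36, 52, 28, 64, 43, 32, 19 and 24. The upstream part of the 3' UTR held the taller ones: the first 7 clusters included all 6 that exceeded the list's median, and the last 2 were the lowest. The first cluster began 20 bases before the 3' UTR interval, so that 20 of its 99 bases lay outside it. The tallest cluster, at 56144908 to 56145113, was also the widest of all 28, with 206 bases and a fold of 8.04. Its midpoint lay 37.4% of the way along the 3' UTR. Clusters of 131, 120 and 99 bases also occurred, and the median width was 84 bases.

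Gpm6b, on chromosome X, was listed under 9 transcripts, of which 3 start at 162676875 and 6 at 162782485, and all end at 162826965. Its 9 clusters had heights of 37, 42, 32, 28, 26, 45, 72, 26 and 19 in order along the transcript. A single cluster stood out: that of height 72 and fold 9.55 at 162826123 to 162826249, which was 1.6 times as tall as the next (45, at 162825869 to 162825985). In Cd24a the tallest cluster was 1.16 times and in Gpm6a 1.23 times as tall as the next. The Gpm6b clusters were 38 to 140 bases wide with a median of 85.

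The first Gpm6b cluster fell in a stretch that is read differently in different transcripts. It covers 47 bases at 162824885 to 162824931 and begins 1 base inside an exon interval that starts at 162824884. In 3 of the 9 transcripts these bases are coding sequence, within an interval of 150 bases at 162824884 to 162825033, and in the other 6 they belong to the 3' UTR. The other 8 clusters lay in the 3' UTR of all 9 transcripts. With a height of 37 the first cluster was the fourth tallest of the gene. Which of the 9 transcripts the tags came from was not tested.

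**Figure D1:**
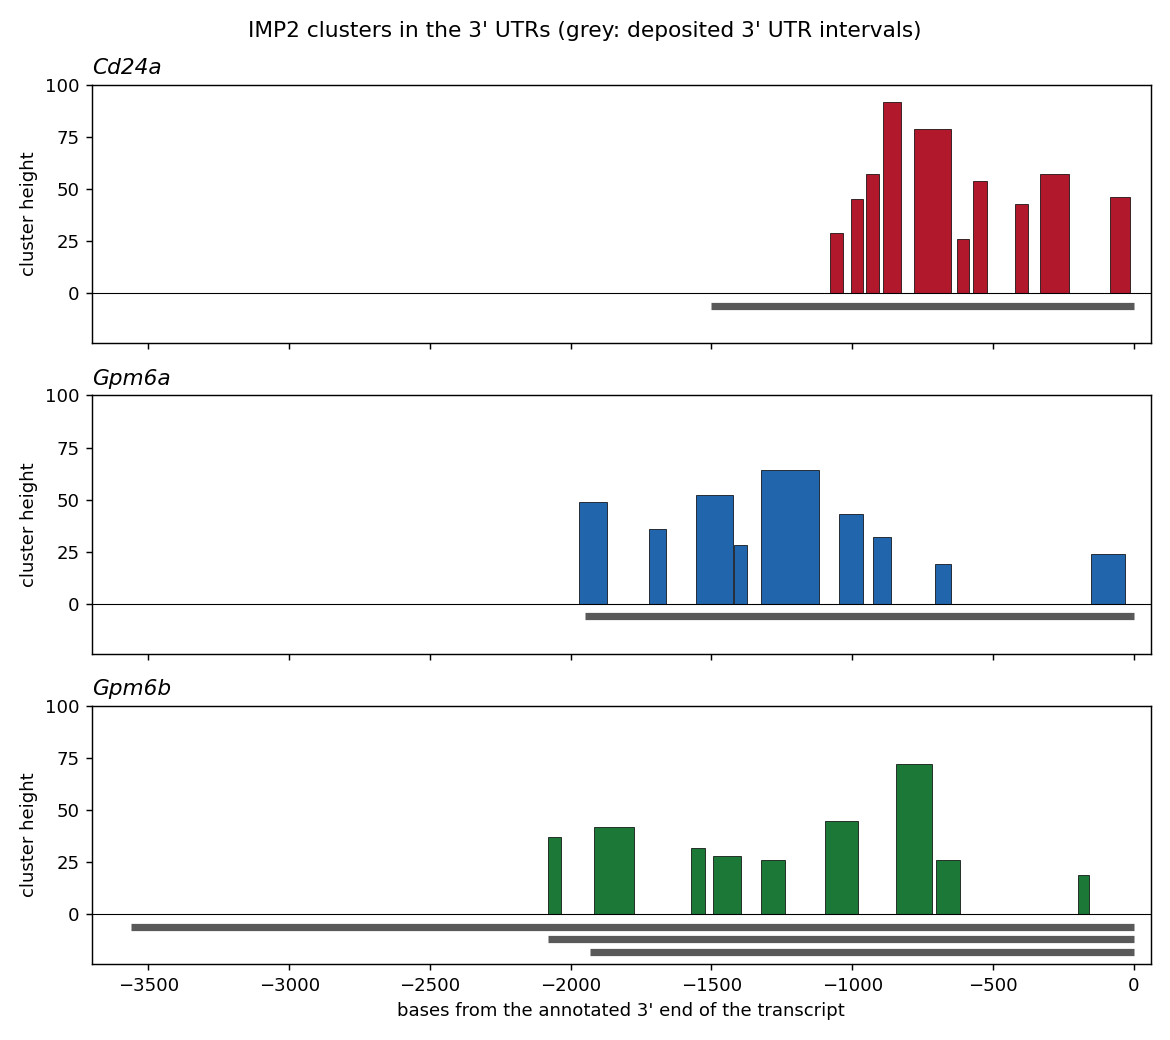
Clusters of Cd24a, Gpm6a and Gpm6b, each drawn as a bar as wide as the cluster and as tall as its height, against the distance in bases from the annotated 3' end; grey lines are the deposited 3' UTR intervals. The 10 Cd24a clusters sit within 1063 bases, the 9 of Gpm6a within 1938 and the 9 of Gpm6b within 1921, and the longest of the 3 Gpm6b intervals begins with 1480 bases that hold no cluster.

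With all listed clusters counted, both M6 genes were close in extent and density from the first cluster to the last, but not over the longest 3' UTR interval. The clusters of Gpm6a stretched over 1938 bases from first to last and those of Gpm6b over 1921. This gave 4.64 and 4.69 clusters per 1000 bases of that stretch. With only clusters taller than the list's median, the densities from first to last were further apart, at 5.425 in Gpm6a and 3.663 in Gpm6b. Over the longest 3' UTR interval (1949 and 3562 bases) the densities were 4.62 in Gpm6a and 2.53 in Gpm6b. Their tallest clusters had midpoints 37.4% and 78.1% of the way along it. The median cluster width was 84 bases in Gpm6a and 85 in Gpm6b, and the median gap 89 and 127.5 bases. In both, a long gap set the last cluster apart, of 499 bases in Gpm6a and 420 in Gpm6b. The last cluster was low in both, with heights of 24 and 19.

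In Cd24a too the longest gap, of 145 bases, was the one before the last cluster. Among the 34 genes with at least 8 clusters in the 3' UTR, the longest gap preceded the last cluster in 5, or 14.7%. These 3 genes were thus among the 5, next to Impad1 and Marcks, which were named after their values were seen. This feature was noticed in the data, and no test was made of it.

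Heights in Cd24a were above those of both M6 genes at the top and in the middle of their ranges. Cd24a clusters had heights from 26 to 92, against 19 to 64 in Gpm6a and 19 to 72 in Gpm6b. The medians were 50, 36 and 32, and the sums 528, 347 and 327. The ranges overlapped widely: the 2 lowest Cd24a clusters, at 26 and 29, fell below the medians of both M6 genes. Within Cd24a and within Gpm6b the folds had the same order as the heights, while in Gpm6a the cluster of height 36 had a fold of 7.13, above the 5.67 of the cluster of height 43. The Gpm6a cluster of height 28 likewise had a fold of 4.37, above the 4.2 of the cluster of height 32. Dividing height by fold gives the implied reference level, which was 6.76 to 8.44 for Cd24a clusters, 5.05 to 7.96 for Gpm6a and 6.86 to 8.12 for Gpm6b, against a median of 5.96 over the list. Among all 28 clusters, 19 (67.9%) were taller than the list's median, which 46.9% of all clusters exceeded. By gene these were 8 of 10 in Cd24a, 6 of 9 in Gpm6a and 5 of 9 in Gpm6b, and the genes were chosen for their clusters, so nothing is read from these shares.

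**Figure D2:**
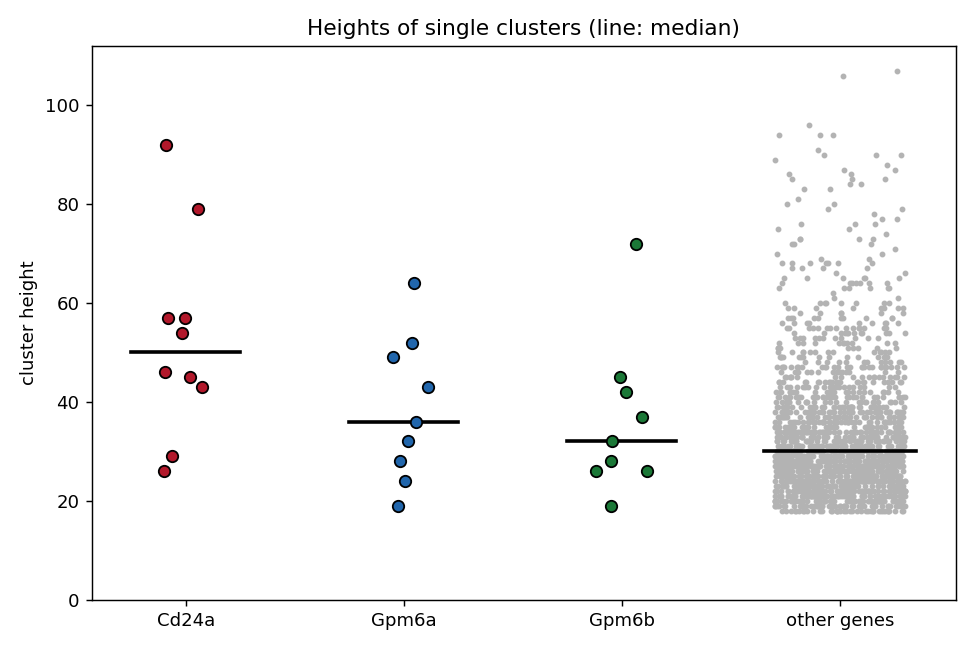
Height of each cluster (vertical axis) for Cd24a, Gpm6a, Gpm6b and the 1800 clusters of all other genes, with a line at each median; points are spread sideways for sight only. The medians stand at 50, 36, 32 and 30, and the top clusters of the 3 genes at 92, 64 and 72 lie below the list's highest value of 107.

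How dense Cd24a was against Gpm6b depended on the stretch over which clusters were counted. Over the longest deposited 3' UTR interval, Cd24a had 6.67 clusters per 1000 bases, against 2.53 in Gpm6b, a ratio of 2.64. Clusters covered 640 of 1500 bases in Cd24a (42.7%), against 785 of 3562 in Gpm6b (22.0%). The longest Gpm6b interval, at 162823404 to 162826965, belongs to 3 transcripts. Its first 1480 bases held 0 clusters and are part of no 3' UTR interval of the other 6 transcripts. Over the shortest Gpm6b interval, the 1932 bases at 162825034 to 162826965 that 3 further transcripts have, there were 8 clusters, or 4.14 per 1000 bases, and 38.2% of the bases were covered. The ratio of densities, Cd24a over Gpm6b, was then 1.61 and that of coverage 1.12. Over the interval of intermediate length (2082 bases) Gpm6b had 4.32 clusters per 1000 bases and a coverage of 37.7%.

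Clusters with a midpoint in a 3' UTR were also counted only from the first to the last, a measure chosen after the data were examined. It does not use the length of a 3' UTR interval. This gave 9.41 clusters per 1000 bases in Cd24a, against 4.69 in Gpm6b, a ratio of 2.01. Clusters covered 60.2% of that stretch in Cd24a, 44.6% in Gpm6a and 40.9% in Gpm6b. The gaps between neighbours had a median of 27 bases in Cd24a, against 89 in Gpm6a and 127.5 in Gpm6b. Coverage of the whole 3' UTR did not separate Cd24a (42.7%) from Gpm6a (43.4%), and the Gpm6a clusters were fewer but wider.

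The density of Cd24a also rested on its clusters being counted apart. When clusters of a gene at most 50 bases apart were joined, Cd24a had 3 left. The first 7 became a block of 556 bases at 43302995 to 43303550, followed by a block of 193 bases and the last cluster of 70. Gpm6a kept 6 and Gpm6b 7. The Cd24a density over the longest interval was then 2 per 1000 bases, against 3.08 in Gpm6a and 1.97 in Gpm6b. From first to last cluster the order turned round, with 2.82 in Cd24a, 3.10 in Gpm6a and 3.64 in Gpm6b.

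**Figure D3:**
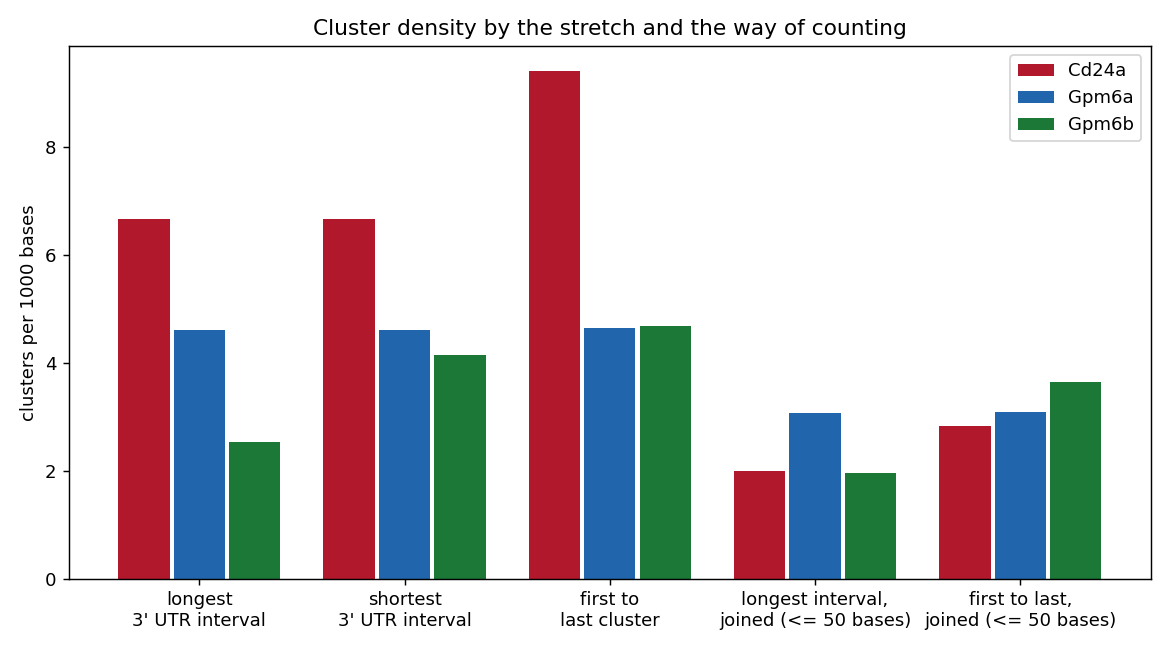
Clusters per 1000 bases (bars, from 0) for Cd24a, Gpm6a and Gpm6b under 5 ways of counting, named below the axis. Cd24a is highest in the first 3 (6.67, 6.67 and 9.41), while with clusters at most 50 bases apart joined it is at 2 and 2.82, below Gpm6a in both.

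Among the 761 genes of the list, all 3 stood near the top by their highest cluster and by number of clusters, for which they were chosen. Cd24a ranked seventh by its highest cluster, between the genes at 94 (Eif4g2, Pgrmc1 and Rtn1) and Lars2 at 91. Gpm6b came at rank 27 with 72, a value it shared with Atp2a2, Reep1 and St8sia2, below Ncam1 and Ywhag at 73 and above App at 71. Gpm6a was at rank 41 with 64, tied with 5 genes (Map2, listed as Mtap2, Tanc2, Tcf4, Trip12 and Vapa), below Nedd4 and Rtn3 at 65 and above 5 genes at 63 (Cnn3, Glul, Grb10, Igfbpl1 and Pfn2). These heights carry no error, so neighbours 1 or 2 units apart cannot be put in order. By number of clusters, Cd24a held rank 19, tied with 4 other genes, and both M6 genes rank 24, which 5 genes share. By the sum of heights the ranks were 6 for Cd24a, 28 for Gpm6a and 32 for Gpm6b. By the highest fold they were lower, at 34, 219 and 108, and by the median height they were 21, 142 and 236.

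Cd24a had many clusters, counted as deposited, for the length of its 3' UTR, and it was picked partly for that number. At least 8 clusters in the 3' UTR were found in 34 of 761 genes (4.47%), the 3 members included; the minimum of 8 was set with the members' counts known. Within these 34, the 3' UTR of Cd24a was the second shortest, against a median of 3595.5 bases, and its density over the longest interval (6.67) was second to that of the tubulin gene Tubb5 (7.53, 8 clusters in 1062 bases). From first to last cluster its density of 9.41 was the highest of the 34, above Tubb5 at 8.36, while Gpm6b was sixth and Gpm6a seventh. With the median gap as the measure, Cd24a (27 bases) came next to Tubb5 (17 bases), against a median of 117.5 bases over the 34 genes. By the share of the longest interval covered, Cd24a was lower, at rank 9 of the 34 (42.7%). Gpm6a was at rank 8 (43.4%) and Gpm6b at rank 18 (22.0%).

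Other genes with 3' UTRs of similar length mostly had fewer clusters than the members. Because the members were picked for having many clusters, these counts describe them and cannot show that their number is unusual. Only clusters as deposited were counted. With those at most 50 bases apart joined, Cd24a had 3, Gpm6a 6 and Gpm6b 7, and the comparison by length was not made for these numbers. Of 138 other listed genes whose 3' UTR was 1200 to 1875 bases long, 0 had as many clusters as Cd24a; the most was 8 and the median 1. Of 149 other genes with 1560 to 2436 bases, a window around Gpm6a, 1 had as many clusters as Gpm6a, Rtn3. Of 150 other genes with 2850 to 4452 bases, a window around the longest interval of Gpm6b, 9 had at least as many clusters as Gpm6b, up to 18. The windows were chosen after the data were examined.

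**Figure D4:**
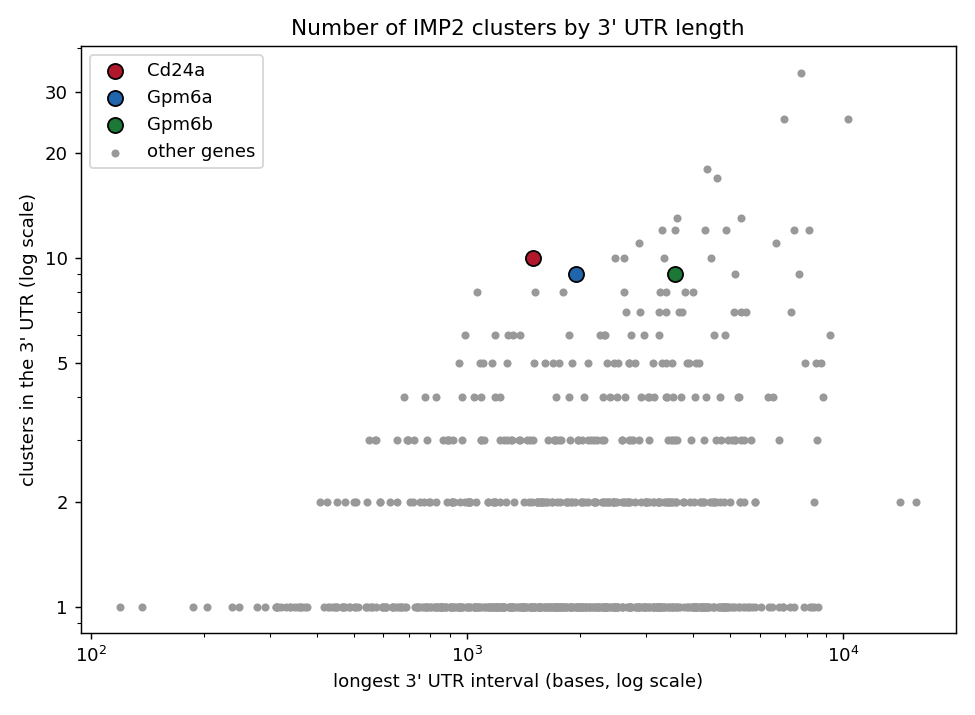
Number of clusters in the 3' UTR against the length of the longest deposited 3' UTR interval, both on log scales, for the 729 genes with a 3' UTR cluster. Cd24a (1500 bases, 10 clusters) and Gpm6a (1949 bases, 9 clusters) lie at the upper edge of the points at their lengths, while Gpm6b (3562 bases, 9 clusters) has genes with up to 18 clusters near it.

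The genes most like each member were found by the mean difference in percentile rank over 4 measures: 3' UTR length, clusters per 1000 bases, share covered and highest cluster. All but the highest cluster were taken over the longest deposited 3' UTR interval of each gene. Nearest to Cd24a, among 729 genes, was Hnrnpa0, which encodes an RNA-binding hnRNP protein, at a mean difference of 0.823 percentile points, with 8 clusters in 1517 bases and a top height of 80. The membrane protein gene Pgrmc1 (2.97) and the imprinted gene Mest (3.52) came next. Nearest to Gpm6a were the reticulon gene Rtn3 (0.737), with 9 clusters in 1929 bases and a top height of 65, the G protein subunit gene Gnb1 (1.77) and Hnrnpa0 (4.39). Nearest to Gpm6b were Map2 (2.57), encoding a microtubule-associated protein of dendrites, the neural adhesion gene Ncam1 (3.53) and the transcription factor gene Tcf4 (3.94), each with 12 clusters. These neighbours hold for the longest Gpm6b interval only. Nearest genes were not sought with its shortest interval (1932 bases, 4.14 clusters per 1000 bases, 38.2% covered).

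Other GPI-anchored proteins and reported partners of CD24 were looked up in the same list. At least 1 cluster was carried by 3.47% of the 21900 protein-coding genes, which were counted whether or not the tissue expresses them. The lists of genes were written with earlier results of these data known, so nothing is read from their shares. Of 42 genes for GPI-anchored surface proteins of neurons other than Cd24a, 4 were listed (9.52%, exact Clopper-Pearson 95% interval 2.66 to 22.6, counting error only). These were the prion protein gene Prnp (highest cluster 35, 1 cluster), the heparan sulfate proteoglycan gene Gpc2 (33, 3 clusters), the repulsive guidance molecule gene Rgma (33, 1 cluster, with no midpoint in a 3' UTR) and the IgLON adhesion gene Negr1 (29, 4 clusters). The top cluster of Cd24a was 92, against 29 to 35 in the other listed GPI genes. Cd24a was chosen for its clusters, so nothing is read from this difference. Of 7 genes for reported binding partners of CD24 and their L1-family relatives, Chl1 (34, 4 clusters) and Nfasc (33, 1 cluster) were listed, and L1cam, Cntn2, Nrcam, Selp and Siglecg were not.

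Markers of cell types that can make these proteins, or that the tissue could hold, were counted in the same way. They stand beside the 3.47% of all protein-coding genes, whether or not the tissue expresses them. The lists were written with earlier results of these data known, so the counts are a description. Of 11 markers of immature neurons 8 carried clusters (72.7%, exact 95% interval 39.0 to 94.0). These were Nrep (highest cluster 106), Dcx (85), Stmn2 (85), Ncam1 (73), Map2 (64), Elavl3 (43), Gap43 (27) and Neurod6 (23). Of 14 markers of radial glia and astroglia, 4 did (28.6%, exact 95% interval 8.39 to 58.1): Gja1 (38), Ptprz1 (34), Slc1a2 (27) and Vim (27). None of 11 markers of myelin and the oligodendrocyte lineage was listed (0%, exact 95% interval 0 to 28.5). Nor was any of 9 markers of lymphocytes and granulocytes, which also carry CD24 (0%, exact 95% interval 0 to 33.6). Both counts of 0 are near what the share of all genes would give for lists this short, so nothing is read from them. Of 9 erythroid markers 3 were listed (33.3%, exact 95% interval 7.49 to 70.1): Hba-a1 and Hba-a2, which share 1 cluster of height 27, and Hbb-y at 23. Of 6 ependymal and choroid plexus markers only Ttr (88) was (16.7%, exact 95% interval 0.421 to 64.1). The part of each cell type in the clusters of Cd24a, Gpm6a and Gpm6b was not tested.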

How the data were processed

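The deposited list was used as it stands. The submitters' processing notes name FastQC, Bowtie and the build mm9 and no versions. How peaks were called, how duplicate and multiply mapping tags were handled and whether the 4 libraries were pooled are points not given in the sources used here. Cluster height is a signal (pileup) in whole numbers, and fc_h a ratio (fold of the height), per the file headers. Library sizes are unknown, so no interval on a height can be given. Whether Cd24a tags could map to other copies was not tested; no Cd24a, Gpm6a or Gpm6b cluster was listed under another symbol.

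The 2865 lines were reduced to 1828 clusters with pandas 2.3.3 in Python 3.11.15. Starts were converted from 0-based to 1-based. A cluster belonged to the 3' UTR if its midpoint lay in any deposited 3' UTR interval of the gene; each interval is the part of an exon. Gene names and the 21900 protein-coding genes came from a RefSeq table of GRCm38, and no coordinate was taken from it; 1 of the marker genes (Ahsp) was not in it and was left out. The counting steps were checked on simulated intervals. The members and the 8 gene lists were chosen with earlier results of these data known; 1 gene of them is not reported here. Named genes are the members, listed members of the lists, the 3 genes nearest in pattern and the neighbours in height; others are said to be named later. No sequence of mm9 was used here.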

Additional observations from a re-analysis of the deposited data

How the results depend on the processing

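Heights have no error, depth is unknown and PCR duplicates could not be checked, so small differences in height have no order; leaving out a library could not be done and no paired analysis was possible because the list has no column for a single library. Counts, densities, ratios and ranks were taken as moved beyond 1.5 times, and coverage, more strictly, outside the exact 95% binomial interval of its bases. Bases of the same cluster are not independent, so that interval measures no error and serves only as a limit. By these limits, of 64 values under alternatives 39 stayed, 24 moved and 1 reversed. Some of the 39 could not have moved. No clusters of these genes touched or overlapped, and Cd24a and Gpm6a had a single 3' UTR interval each. The number of clusters and the number in the 3' UTR concern the same clusters and were both counted. The tally is therefore no measure of stability. Joining clusters touching or overlapping left every number of clusters of the 3 genes as it was. Joining at up to 50 bases left Cd24a 3 clusters and brought its density to 2 per 1000 bases of 3' UTR and 2.82 from first to last cluster; the ratio of Cd24a over Gpm6b became 1.02 over the 3' UTR and reversed to 0.774 from first to last cluster. Taking only clusters taller than the median left Gpm6b 5 clusters and 1.40 per 1000 bases, and 3' UTR coverage of 36.9% in Cd24a, 32.0% in Gpm6a and 13.5% in Gpm6b; from first to last cluster coverage was 55.8%, 58.2% and 35.1%. With the shortest 3' UTR interval Gpm6b had 4.14 clusters per 1000 bases and 38.2% coverage, and the ratios of Cd24a over Gpm6b were 1.61 and 1.12. By highest fold the ranks were 34 for Cd24a, 219 for Gpm6a and 108 for Gpm6b, and by median height 21, 142 and 236. The measures from first to last cluster were added after the data were examined.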
